A study of Mus musculus with 12 samples.

Results

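The genes described here are 3 connexins (Gjb1, Gjb2 and Gja1), E-cadherin (Cdh1) and 3 catenins (Ctnnb1, Ctnna1 and Ctnnd1), which build the gap junctions and adherens junctions between epithelial cells. They were taken as every probe set whose platform annotation names 1 of these 7 genes and no other gene, which gave 17 of the 22516 probe sets and 7 of 12335 named genes. After a filter on dim probe sets, 14 of the 17 were tested, and every one of the 7 genes kept at least 1. The 3 left out were 1415800_at and 1415801_at of Gja1 and 1437275_at of Ctnna1, whose means in the 4 groups stayed between 9.17 and 33.9. On GRCm38.p6 the genes lie at chrX:101376376-101385629 (Gjb1), chr14:57098602-57104702 (Gjb2), chr10:56377300-56390419 (Gja1), chr8:106603350-106670247 (Cdh1), chr9:120933400-120960507 (Ctnnb1), chr18:35118902-35254776 (Ctnna1) and chr2:84587096-84658977 (Ctnnd1).

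Whole pancreas from 12 male mice aged 2 to 4 months was measured on Affymetrix arrays, 1 array per animal. The 4 groups of 3 were Mist1KO mice after caerulein, wild type mice after caerulein, Mist1KO mice after saline and wild type mice after saline. Injections were repeated every hour over 4 hours, and RNA was taken at the end of that time. Mist1, the product of Bhlha15, is a bHLH transcription factor made by secretory cells, and caerulein is a cholecystokinin analogue that drives enzyme secretion and, in excess, causes pancreatitis. The wild type mice were C57BL6, while the labels state neither the strain background and allele of the Mist1KO mice nor the caerulein dose. Saline-injected mice received no caerulein, so they are the baseline of each genotype.

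Gap junctions are clusters of channels made of connexins, through which ions and small molecules pass between neighbouring cells. In the exocrine pancreas, acinar cells are coupled chiefly through connexin channels built of the products of Gjb1 and Gjb2, and this coupling takes part in the control of enzyme secretion. E-cadherin holds epithelial cells together, and its cytoplasmic tail carries β-catenin and p120-catenin, while α-catenin joins the complex to actin. β-catenin also acts as a transcriptional partner in the Wnt pathway.

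The promoter windows below are shown because Gjb1 and Gjb2 were the members that differed between the genotypes after both injections. Mist1 and its relatives bind E-boxes, written CANNTG, and the form CATATG is known to be bound by Mist1. The sequences are from RefSeq on GRCm38.p6 and run from 250 bases before to 50 bases after an annotated start. Gjb1 has 4 such windows, and the one shown is the fourth, chrX:101383482-101383781 on the plus strand, around a start inside the annotated gene (chrX:101376376-101385629). Of the 4 windows it alone holds CATATG, so its match is 1 found by looking through 4 windows. The Gjb2 window is chr14:57104653-57104952 on the minus strand. Capitals mark each CANNTG.
Gjb1: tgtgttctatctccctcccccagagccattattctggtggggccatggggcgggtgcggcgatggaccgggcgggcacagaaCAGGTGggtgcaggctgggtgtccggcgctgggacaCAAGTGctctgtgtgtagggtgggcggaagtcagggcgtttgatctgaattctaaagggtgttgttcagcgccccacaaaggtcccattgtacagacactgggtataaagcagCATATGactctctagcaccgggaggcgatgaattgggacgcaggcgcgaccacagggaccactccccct
Gjb2: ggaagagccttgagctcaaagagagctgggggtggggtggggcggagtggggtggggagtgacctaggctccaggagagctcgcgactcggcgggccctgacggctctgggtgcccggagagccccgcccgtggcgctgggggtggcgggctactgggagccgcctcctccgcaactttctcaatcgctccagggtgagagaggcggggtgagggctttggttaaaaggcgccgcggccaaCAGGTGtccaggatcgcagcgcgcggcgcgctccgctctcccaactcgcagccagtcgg

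Of the 7 genes, 5 had at least 1 window, 10 windows in all, and 5 motifs were searched on both strands. These were the general E-box CANNTG, its Mist1 form CATATG, its central-GC form CAGCTG, the form CAGGTG that Snail and Zeb factors bind, and the AP-1 motif TGANTCA. The named E-box forms are each also a match to the general one, so those matches overlap. The Gjb1 window printed above holds CAGGTG at position -168, CAAGTG at -132 and CATATG at -19, counted from the start. The other 3 Gjb1 windows hold 1, 1 and 6 general E-boxes and 0 of the Mist1 form. The Gjb2 window holds 1 E-box, the CAGGTG at -9. The Gja1 window holds CAGTTG at -23 and the AP-1 form TGAGTCA at -19. Among all 32851 windows of the same length, 72.31% hold the general E-box, 3.915% the Mist1 form, 16.3% the central-GC form, 20.21% the Snail and Zeb form and 7.808% the AP-1 motif. These shares are per window, while Gjb1 had 4 windows. By gene, 4.485% have the Mist1 form in at least 1 window. These matches describe the letters of the windows, and binding was not measured.

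Bhlha15 itself had signals of 42.6, 38.3 and 79.4 in Mist1KO after caerulein, against 776.8, 729.5 and 838.5 in wild type after caerulein. After saline it had 89.9, 95.9 and 106.8 in Mist1KO, against 1601, 1619 and 1624.3 in wild type, so it was low on every array labelled Mist1KO. Whether this probe set lies in the deleted sequence was not known here. Its signals separate the arrays as labelled, and they do not show what was deleted. Acinar markers were bright on every array, with summed signals of 35351 to 54826 in Mist1KO after caerulein, 70329 to 98580 in wild type after caerulein, 62800 to 73421 in Mist1KO after saline and 83186 to 107793 in wild type after saline. The geometric mean of the hybridisation spikes was 446 ± 58.0 in Mist1KO after caerulein, 1074 ± 325 in wild type after caerulein, 914 ± 138 in Mist1KO after saline and 1263 ± 61.8 in wild type after saline (SD, n = 3). The 50 brightest probe sets took 8.39% to 11.4%, 14.1% to 17.2%, 12.6% to 14.2% and 16.3% to 19.4% of the total signal in these groups in the same order. Array measures thus moved with the groups, and their part in the results below was not tested. With each array centred on its median, the share of higher calls was 71.5% in place of 54.4% for genotype after saline, 61.8% in place of 49.7% for genotype after caerulein, 67.8% in place of 48.5% for caerulein in wild type and 59.8% in place of 43.9% for caerulein in Mist1KO.

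Differences below are log2 differences ± SE between groups of 3 arrays, fitted by limma after adding 18.7 to each signal, and p-values are adjusted over all 15716 probe sets tested. Folds are on that same scale of log2(signal + 18.7), so those of dim genes come out too small. A gene with several probe sets is read first from its brightest. A gene rose or fell where the adjusted p was under 0.05. In whole tissue, fewer cells of a type and less RNA per cell cannot be told apart.

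Gjb1, the gap junction protein Cx32, was low on every Mist1KO array after either injection. After saline its signal was 37.2, 7.6 and 60.8 in Mist1KO, against 439.8, 485.1 and 383.5 in wild type. The caerulein arrays read 40.8, 24 and 32.5 in Mist1KO, against 293.2, 168.4 and 228.9 in wild type. The highest Mist1KO value stayed far below the lowest wild type value in both settings. Gjb1 was 9.26-fold lower in Mist1KO after saline (-3.21 ± 0.33, adjusted p = 4.65e-05) and 4.81-fold lower after caerulein (-2.27 ± 0.33, adjusted p = 0.000317). Because the Mist1KO signals are near the offset, the size depends on it: the saline difference was -3.78 with the offset at the 5th percentile of all values and -2.48 with it at the 40th, where the caerulein difference was -1.68.

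Within wild type, caerulein left Gjb1 at a mean of 230 ± 62.4 against 436 ± 50.9 after saline (SD, n = 3). These arrays did not overlap, but the difference of -0.89 ± 0.33 missed the threshold (adjusted p = 0.0726). It passed in 4 of 22 alternatives, with a lowest adjusted p of 0.0145 in limma's test. Among them were the offset at the 40th percentile (adjusted p = 0.0157) and the fit of only the compared groups (adjusted p = 0.0173). Within Mist1KO the caerulein difference was 0.05 ± 0.33 (adjusted p = 0.933), with values that overlapped around a low level. The change in Gjb1 with caerulein was 0.95 ± 0.46 higher in Mist1KO than in wild type, and this difference was not called (adjusted p = 0.324). The dimmer Gjb1 probe set, 1448766_at, was also lower in Mist1KO after saline (-2.35 ± 0.33, adjusted p = 0.000601) and after caerulein (-2.68 ± 0.33, adjusted p = 9.06e-05). Its caerulein difference in wild type was -0.19 ± 0.33 (adjusted p = 0.726), with arrays that overlapped.

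Gjb2, the gap junction protein Cx26, was lower in Mist1KO and higher after caerulein, and each of the 4 groups occupied its own range. After caerulein the signal was 1384, 1386.1 and 1293.4 in Mist1KO, against 2821.7, 4621.2 and 4381 in wild type. After saline it was 165.6, 142.7 and 176.5 in Mist1KO, against 489.8, 511.7 and 576.6 in wild type. From low to high the order was Mist1KO saline, wild type saline, Mist1KO caerulein and wild type caerulein, and no neighbours in that order overlapped. With caerulein Gjb2 rose 7.64-fold in Mist1KO (2.93 ± 0.16, adjusted p = 9.54e-08) and 7.12-fold in wild type (2.83 ± 0.16, adjusted p = 2.36e-07). Between genotypes Gjb2 was 2.82-fold lower in Mist1KO after caerulein (-1.50 ± 0.16, adjusted p = 3.21e-05) and 3.02-fold lower after saline (-1.60 ± 0.16, adjusted p = 4.65e-05). The response to caerulein differed between the genotypes by 0.10 ± 0.23, with a 95% interval from -0.39 to 0.59 (adjusted p = 0.883).

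Gja1, the connexin Cx43 of many tissues including stroma and smooth muscle, was tested on 4 probe sets, all of the x_at kind, which can share probes with other transcripts. The brightest, 1437992_x_at, had 155.7, 183.1 and 125.4 in Mist1KO after caerulein, against 78.8, 107.1 and 76.7 in Mist1KO after saline. In wild type it had 141.2, 106.9 and 113.1 after caerulein, against 179.6, 99.1 and 109.7 after saline. The Mist1KO groups did not overlap, while the wild type groups did. Gja1 rose 1.63-fold with caerulein in Mist1KO (0.71 ± 0.22, adjusted p = 0.0319), whereas the wild type difference was -0.06 ± 0.22 (adjusted p = 0.878). The interaction of genotype and caerulein was 0.77 ± 0.31 (adjusted p = 0.231). The Mist1KO call was lost when any of Mist1KO saline replicates 1 and 3 or Mist1KO caerulein replicates 1 and 2 was left out. It was also lost without the filter on dim probe sets (adjusted p = 0.0517) and with the median of the gene's probe sets (adjusted p = 0.199). The other 3 tested Gja1 probe sets were not called in any comparison, and the 2 of the plain _at kind were below the filter, so the call rests on 1 x_at probe set.

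Fibroblast markers, from the cells in which Gja1 is known to be expressed, were called lower for 3 of 6 with caerulein in Mist1KO and for 0 of 6 with caerulein in wild type, where 4 of 6 had an unadjusted p under 0.05 in limma's test. Their summed signal was 1668 to 2332 in Mist1KO after caerulein, 1617 to 2542 in wild type after caerulein, 2816 to 4167 in Mist1KO after saline and 2146 to 4197 in wild type after saline. The smooth muscle markers were called lower for 2 of 3 in Mist1KO after caerulein against wild type after caerulein. Called lower among all tested probe sets were 13.4% with caerulein in Mist1KO, 9.74% with caerulein in wild type and 10.2% for genotype after caerulein. The part of these markers in the Gja1 values was not tested.

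**Figure D1:**
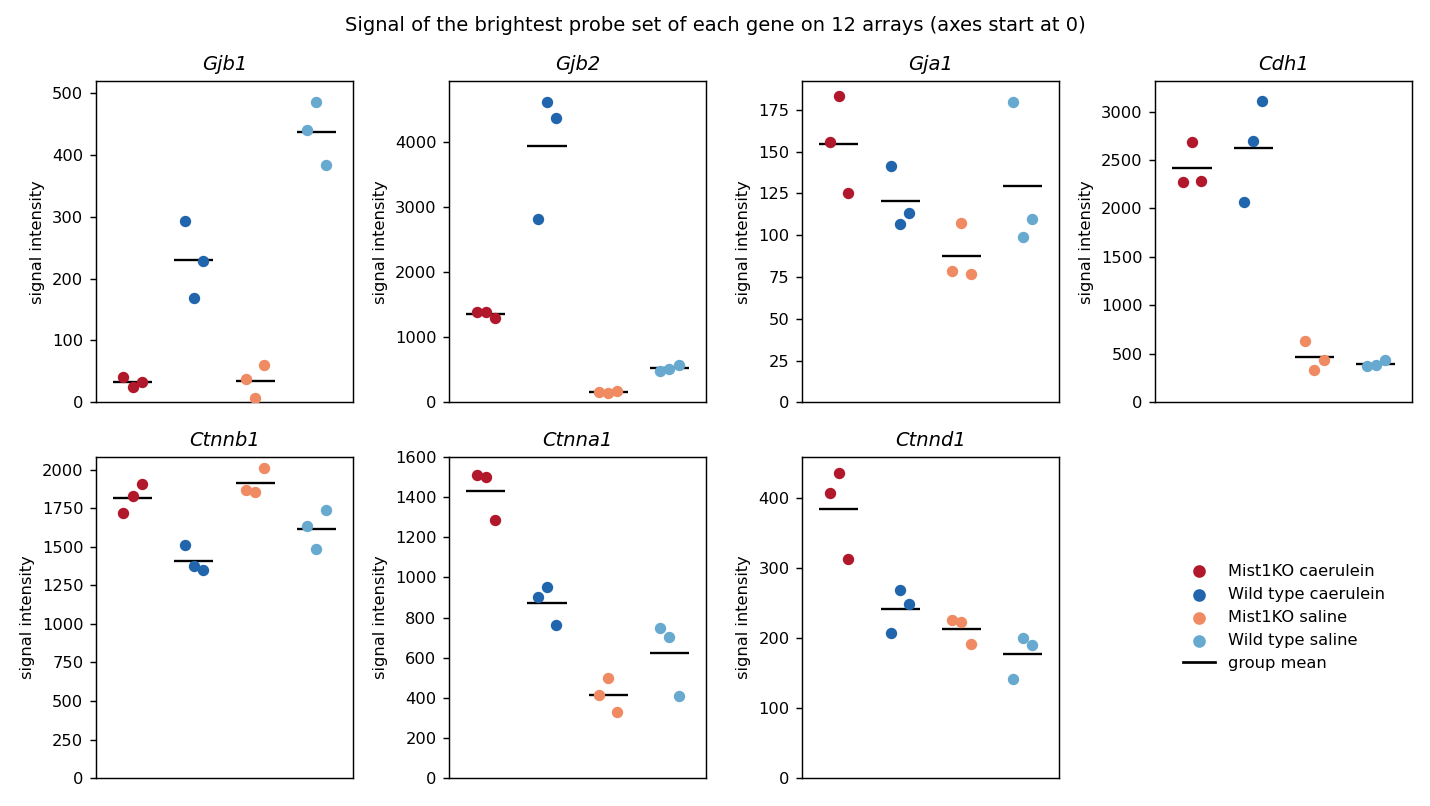
Signal intensity of the brightest probe set of each gene, with axes from 0, 1 point per array and a bar at each group mean. Gjb1 lies between 7.6 and 60.8 on the 6 Mist1KO arrays, while Gjb2 and Cdh1 are high after caerulein in both genotypes.

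Cdh1, E-cadherin, rose steeply with caerulein and did not separate by genotype. After caerulein its signal was 2271.5, 2689.6 and 2285.2 in Mist1KO, against 633.7, 330.1 and 434.7 after saline. In wild type it was 2067.9, 2691.9 and 3110.4 after caerulein, against 378.9, 380.3 and 436.6 after saline. All 6 caerulein arrays lay above all 6 saline arrays. The rise was 5.17-fold in Mist1KO (2.37 ± 0.20, adjusted p = 1.70e-06) and 6.26-fold in wild type (2.65 ± 0.20, adjusted p = 1.08e-06). The genotype difference was -0.10 ± 0.20 after caerulein (95% interval -0.53 to 0.32) and 0.17 ± 0.20 after saline (95% interval -0.25 to 0.60), and the groups overlapped in both. The interaction was -0.27 ± 0.28 with a 95% interval of -0.88 to 0.33 (adjusted p = 0.693). Cdh1 had a single probe set, so no second probe set checks it.

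The catenins follow in the order of their place in the complex. Ctnnd1, p120-catenin, which binds the cadherin tail near the membrane, had 406.9, 435.7 and 312.7 in Mist1KO after caerulein, against 206.7, 269.1 and 249 in wild type after caerulein. After saline it had 225.6, 223.2 and 192 in Mist1KO, against 141.7, 200.6 and 189.8 in wild type. The Mist1KO caerulein arrays were the highest and lay above all others. Ctnnd1 rose 1.73-fold with caerulein in Mist1KO (0.79 ± 0.17, adjusted p = 0.00354), and it was 1.55-fold higher in Mist1KO than in wild type after caerulein (0.63 ± 0.17, adjusted p = 0.0174). In wild type the caerulein difference was 0.41 ± 0.17 (adjusted p = 0.104), and after saline the genotype difference was 0.25 ± 0.17 (adjusted p = 0.342). The genotype call after caerulein was lost without Wild type caerulein replicate 1, Mist1KO caerulein replicate 1 or Mist1KO caerulein replicate 2, with an adjusted p of at most 0.0793.

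Ctnna1, α-catenin, had 1511.4, 1500.5 and 1285.4 in Mist1KO after caerulein, against 901.7, 954 and 762.8 in wild type after caerulein. After saline it had 416.1, 499.3 and 328 in Mist1KO, against 749.2, 705 and 411.3 in wild type. Mist1KO was the higher genotype after caerulein, without overlap, and after saline the genotypes overlapped through Wild type saline replicate 3. With caerulein Ctnna1 rose 3.39-fold in Mist1KO (1.76 ± 0.20, adjusted p = 2.74e-05), and the wild type difference was 0.52 ± 0.20 (adjusted p = 0.0941). It was 1.63-fold higher in Mist1KO than in wild type after caerulein (0.71 ± 0.20, adjusted p = 0.0251), while the saline difference was -0.54 ± 0.20 (adjusted p = 0.0979). The change with caerulein was larger in Mist1KO by 1.24 ± 0.29 (adjusted p = 0.0317). The saline difference passed without Wild type saline replicate 3 (-0.80, adjusted p = 0.00966), and was -0.07 with the median of the gene's probe sets. The wild type caerulein difference passed with median centring (0.65, adjusted p = 0.0411) and with the median of the probe sets (0.78, adjusted p = 0.00144).

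The second tested Ctnna1 probe set, 1437807_x_at, had 925.7, 1074.4 and 714.2 in Mist1KO after caerulein, against 551.4, 466.8 and 498.6 in wild type after caerulein. After saline it had 311.1, 307.7 and 326.9 in Mist1KO, against 197.8, 264.5 and 246.4 in wild type. It was called higher with caerulein in both genotypes, by 2.73-fold in Mist1KO (adjusted p = 1.24e-05) and 2.07-fold in wild type (adjusted p = 0.000293), and higher in Mist1KO after caerulein (0.80 ± 0.15, adjusted p = 0.00227). Its saline difference was 0.40 ± 0.15 (adjusted p = 0.103), of the opposite sign to the brighter probe set, and its interaction was 0.40 ± 0.22 (adjusted p = 0.374). The interaction call of the brighter one was lost in 8 of 21 alternatives, 7 of them the omission of 1 array, namely replicate 1 or 2 of Wild type saline, replicate 3 of Wild type caerulein, replicate 1 or 3 of Mist1KO saline and replicate 1 or 2 of Mist1KO caerulein, with an adjusted p up to 0.0863. The genotype call after caerulein was lost in 5 of 22, among them without Wild type caerulein replicate 3, Mist1KO caerulein replicate 1 or Mist1KO caerulein replicate 2, with an adjusted p up to 0.0904.

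Ctnnb1, β-catenin, was higher in Mist1KO after caerulein and did not pass the test for caerulein against saline in either genotype. After caerulein its signal was 1720.3, 1833.1 and 1908.6 in Mist1KO, against 1512.1, 1373.9 and 1347.7 in wild type. After saline it was 1871.7, 1859.5 and 2011.4 in Mist1KO, against 1633.3, 1485.4 and 1739 in wild type. Mist1KO arrays were above wild type arrays in both settings. The difference after caerulein was 1.29-fold (0.36 ± 0.10, adjusted p = 0.0223), and after saline it was 0.24 ± 0.10 (adjusted p = 0.139). A further probe set, 1450008_a_at, was also called after caerulein (0.41 ± 0.13, adjusted p = 0.0375), and a dimmer one was not (0.39 ± 0.16, adjusted p = 0.0969). The first call was lost without the intensity trend, with only the compared groups fitted, and without replicate 2 or 3 of Wild type caerulein or of Mist1KO caerulein, with an adjusted p up to 0.0718. With caerulein the differences were -0.07 ± 0.10 in Mist1KO (adjusted p = 0.664) and -0.19 ± 0.10 in wild type (adjusted p = 0.206). The wild type difference was called lower in 1 of 22 alternatives (adjusted p = 0.0107 in limma's test). Its lowest value was -0.40 among the alternatives that kept every array.

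**Figure D2:**
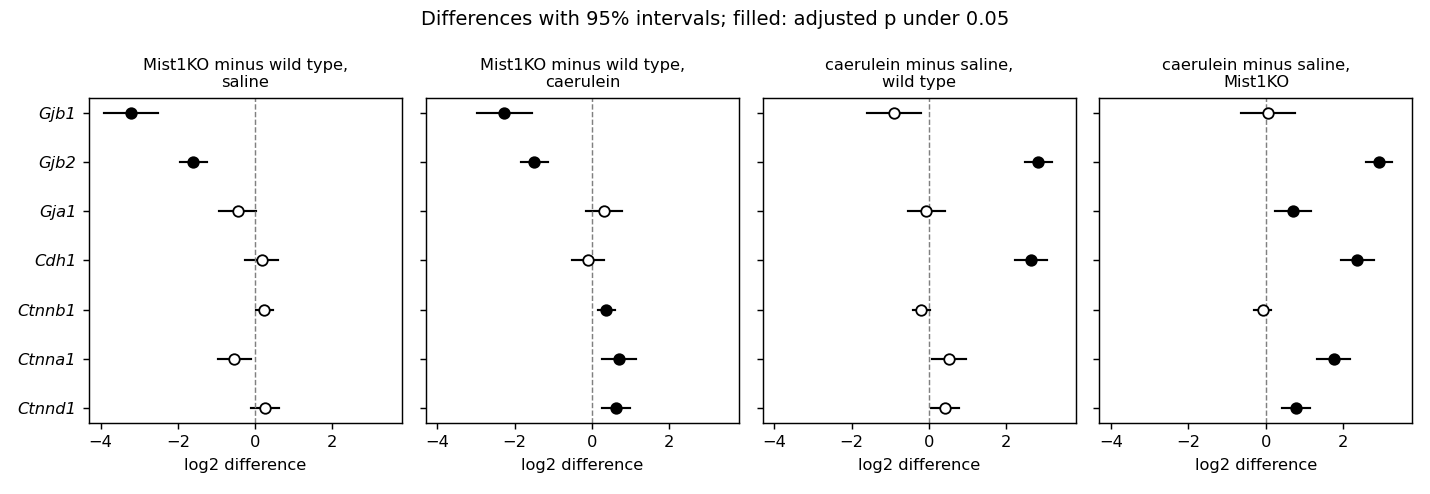
Log2 differences of the brightest probe set of the 7 genes in the 4 comparisons, with bars for 95% intervals and filled points where the adjusted p was under 0.05. The connexins Gjb1 and Gjb2 lie below 0 for genotype after both injections, and Gjb2 and Cdh1 lie above 2 for caerulein in both genotypes.

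**Figure D3:**
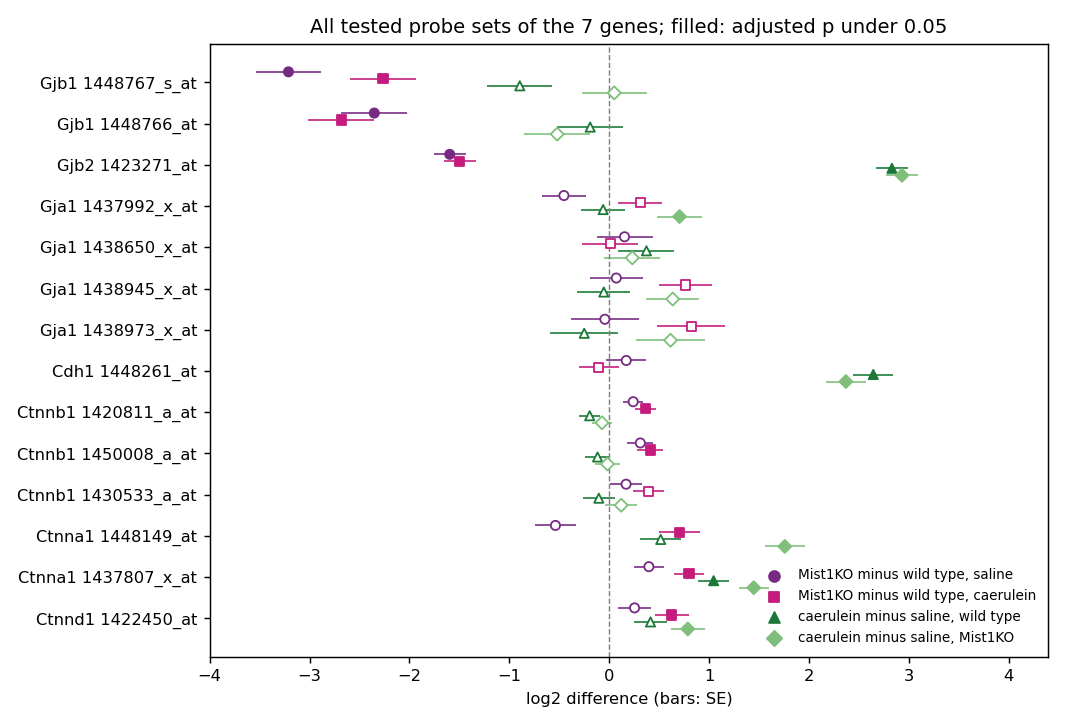
Log2 differences of the 14 tested probe sets in the 4 comparisons, 1 symbol per comparison, with SE bars and filled symbols where the adjusted p was under 0.05. Both Gjb1 probe sets are below 0 for genotype after either injection, and the 2 tested Ctnna1 probe sets lie on opposite sides of 0 for genotype after saline.

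The saline comparison of genotypes reads the unstimulated pancreas, and there 2 of the 7 genes fell in Mist1KO (Gjb1 and Gjb2) and 0 rose, with 4 at an unadjusted p under 0.05 in limma's test. Among all 15716 tested probe sets 5.74% were called lower, 6.84% higher and 12.6% in either direction. Mist1KO against wild type after caerulein had 2 lower (Gjb1 and Gjb2) and 3 higher (Ctnnb1, Ctnna1 and Ctnnd1), against 10.2% lower, 10% higher and 20.2% in either direction among all tested probe sets. The 5 calls dropped to 3 without Wild type caerulein replicate 3 or without Mist1KO caerulein replicate 1, and to 2 without Mist1KO caerulein replicate 2.

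The caerulein comparisons ask how each genotype responded. Caerulein against saline in Mist1KO had 5 of 7 higher (Gjb2, Gja1, Cdh1, Ctnna1 and Ctnnd1) and 0 lower, with 5 at an unadjusted p under 0.05, against 10.5% of all tested probe sets called higher, 13.4% lower and 24% in either direction. In wild type 2 of 7 rose (Gjb2 and Cdh1) and 0 fell, with 5 at an unadjusted p under 0.05, against 9.19% called higher, 9.74% lower and 18.9% in either direction. The interaction was called for 1 of 7, Ctnna1, with a higher value in Mist1KO, against 1.51% higher, 1.78% lower and 3.3% in either direction among all tested probe sets. Members are counted by their brightest probe set, whereas the shares count every tested probe set. Of the members' 14 tested probe sets, 6 rose with caerulein in Mist1KO, 3 rose in wild type, 0 fell in either, and 1 had a called interaction. For genotype 5 were higher and 3 lower after caerulein, and 0 higher and 3 lower after saline. Groups did not overlap for 5 of 7 genes with caerulein in Mist1KO (43.4% of all tested probe sets), 5 with caerulein in wild type (33.8%), 5 for genotype after caerulein (38.1%) and 3 for genotype after saline (33.1%). The comparisons share arrays, so their counts are not independent. The median difference of the 7 genes was 0.79 in Mist1KO and 0.41 in wild type, beside -0.13 and -0.14 for all tested probe sets. For genotype it was 0.31 after caerulein and -0.45 after saline, beside -0.05 for all tested probe sets in both.

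Other genes of the same junctions were read from lists. Of the other connexins and pannexins, 6 of 19 were tested. In Mist1KO 1 of these 6 fell with caerulein, a count near the 13.4% of all tested probe sets called lower. This was Gjc3, a connexin of glial cells (-1.20 ± 0.39, adjusted p = 0.0387), at signals of 38.7, 5.2 and 6 after caerulein against 53.1, 62.1 and 52.2 after saline. The Gjc3 call was lost in 8 of 21 alternatives, among them without any of the 3 Mist1KO saline arrays or without Mist1KO caerulein replicate 2 or 3. In wild type caerulein, and in both genotype comparisons, 0 of 6 were called and 0 had an unadjusted p under 0.05 in limma's test. Medians of these 6 were -0.35 for genotype after saline and -0.06 after caerulein.

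Desmosomes anchor keratin filaments at cell contacts, and 8 of 11 listed genes were tested. With caerulein 4 of the 8 rose in Mist1KO and 5 of 8 in wild type, and 0 fell, against 10.5% and 9.19% of all tested probe sets called higher. The list median was 0.64 in Mist1KO and 0.69 in wild type, and the wild type count was 3 without Wild type caerulein replicate 1. Dsp, desmoplakin, which links desmosomes to keratins, had 1918.8, 1951.7 and 1679.1 in Mist1KO after caerulein, against 453.1, 333.8 and 419.4 after saline. In wild type Dsp had 2148.4, 2357 and 2498.3 after caerulein, against 325.8, 362.4 and 337.2 after saline. It rose 4.46-fold in Mist1KO and 6.52-fold in wild type (adjusted p = 1.06e-07 and 4.65e-08), again with every caerulein array above every saline array. Pkp3, a plakophilin of the desmosome plaque, rose by 1.83 ± 0.16 in Mist1KO and 1.09 ± 0.16 in wild type. Dsc2, a desmosomal cadherin, rose in wild type (1.04 ± 0.27), a call lost without Wild type caerulein replicate 1 (adjusted p = 0.0601). Pkp2, a further plakophilin, rose in Mist1KO (0.75 ± 0.15) and in wild type (0.83 ± 0.15). For genotype 1 of 8, Dsg2, was higher in Mist1KO after caerulein (0.52 ± 0.15, adjusted p = 0.0237), against 10% of all tested probe sets called higher. That call was lost in 6 of 22 alternatives, among them without Wild type caerulein replicate 2 or 3 or Mist1KO caerulein replicate 1, and the value was -0.02 with the median of its probe sets.

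Among the other cadherins, catenins and adherens junction partners, 16 of 25 genes were tested. With caerulein 2 rose and 0 fell in Mist1KO (10.5% and 13.4% of all tested probe sets), and 2 rose and 1 fell in wild type (9.19% and 9.74%). For genotype 2 were higher and 1 lower after caerulein (10% and 10.2%), and 1 higher and 2 lower after saline (6.84% and 5.74%). Counts this small are near those shares. Vcl, vinculin, which binds α-catenin and actin, was called higher in all 4 comparisons. Its signals were 1330.6, 1067.8 and 1023.4 in Mist1KO after caerulein, against 464.3, 586.1 and 557.1 in wild type after caerulein. After saline they were 321.9, 270.5 and 359.9 in Mist1KO, against 201, 188.9 and 194.8 in wild type. The differences were 1.06 ± 0.14 and 0.65 ± 0.14 for genotype after caerulein and after saline, and 1.79 ± 0.14 and 1.37 ± 0.14 for caerulein in Mist1KO and in wild type. The saline call was lost without Mist1KO saline replicate 3 (adjusted p = 0.0514). Jup, plakoglobin, a relative of β-catenin found in both junction types, rose with caerulein in Mist1KO (1.55 ± 0.28) and in wild type (1.34 ± 0.28). Of these 16 genes, Cdh13 (-0.78 ± 0.23) and Pkp4 (-0.74 ± 0.16) fell in Mist1KO after saline, and Cdh2, N-cadherin, fell there after caerulein (-1.02 ± 0.29) while Nectin2 was higher (0.96 ± 0.23). Plekha7, which joins p120-catenin to microtubules, fell with caerulein in wild type (-0.49 ± 0.16), a call lost in 14 of 22 alternatives, among them the omission of any wild type array. The call of Cdh13 was lost in 12 of 21, among them the omission of any saline array. That of Cdh2 was lost without Wild type caerulein replicate 1 or 2 or Mist1KO caerulein replicate 2 (adjusted p up to 0.0963).

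For the transcription factors that repress E-cadherin, 5 of 10 were tested, and Tcf4 fell in Mist1KO after saline (-0.71 ± 0.21, adjusted p = 0.0408) and with caerulein in wild type (-0.63 ± 0.21, adjusted p = 0.0479), calls that were lost in 11 and in 15 of 22 alternatives, among them the omission of any saline array. This is 1 of 5 in each, beside 5.74% and 9.74% of all tested probe sets called lower. For genotype after caerulein and caerulein in Mist1KO, 0 of 5 were called and 0 had an unadjusted p under 0.05 in limma's test. Of 9 tested genes of β-catenin turnover and Wnt transcription, Gsk3b, the kinase that marks β-catenin for destruction, rose with caerulein in Mist1KO (0.64 ± 0.19) and in wild type (0.64 ± 0.19). Axin1, its scaffold, rose with caerulein in Mist1KO (0.81 ± 0.22) and was 0.56 ± 0.22 in wild type (adjusted p = 0.0893). The Axin1 call was lost without Mist1KO saline replicate 2, without Mist1KO caerulein replicate 2 and with the median of its probe sets (0.50, adjusted p = 0.113). The Gsk3b call in Mist1KO was lost without replicate 1 or 3 of Mist1KO saline or replicate 1 or 2 of Mist1KO caerulein (adjusted p up to 0.0846). Its call in wild type was lost in 6 of 22 alternatives, among them without replicate 1 or 3 of Wild type saline or of Wild type caerulein. These counts were 2 of 9 in Mist1KO, which was 0 without Mist1KO caerulein replicate 2, and 1 of 9 in wild type, against 10.5% and 9.19% of all tested probe sets called higher. For genotype 0 of 9 were called and 0 had an unadjusted p under 0.05 in limma's test, after either injection.

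Of 13 tested genes that shed, internalise or phosphorylate junction proteins, 5 rose and 1 fell with caerulein in Mist1KO, and 3 rose and 1 fell in wild type. Of all tested probe sets, 10.5% were higher and 13.4% lower with caerulein in Mist1KO, and 9.19% were higher and 9.74% lower in wild type. Arf6, a GTPase of E-cadherin endocytosis, rose by 1.17 ± 0.17 in Mist1KO and 1.67 ± 0.17 in wild type. Both calls held with the median of its probe sets, at 1.19 in Mist1KO and 0.57 in wild type. The larger rise in wild type was therefore seen only with the brightest probe set. Rab11a, which returns cadherin to the membrane, rose by 1.31 ± 0.16 in Mist1KO and 0.60 ± 0.16 in wild type, where the call was lost with only the compared groups fitted and when replicate 2 of the saline arrays or replicate 1 of the caerulein arrays of wild type was left out (adjusted p up to 0.0692). Src, a tyrosine kinase, rose by 1.07 ± 0.14 in Mist1KO. Adam10, the protease that sheds the E-cadherin ectodomain, rose with caerulein in wild type (1.14 ± 0.24) and was higher in Mist1KO than in wild type after saline (1.07 ± 0.24). With the median of its probe sets both calls were lost, at 0.25 (adjusted p = 0.274) and 0.37 (adjusted p = 0.121). Its caerulein difference in Mist1KO was 0.68 ± 0.24, which narrowly missed the threshold. Adam15 fell in Mist1KO after saline (-0.81 ± 0.23), a call lost in 8 of 22 alternatives. Its value was -0.10 with the median of its probe sets (adjusted p = 0.642) and -0.48 without Wild type saline replicate 1, and the call was also lost without Wild type saline replicate 2 or Mist1KO saline replicate 2 or 3. After caerulein 4 of 13 were higher in Mist1KO than in wild type and 0 lower, with 5 at an unadjusted p under 0.05 in limma's test, against 10% of all tested probe sets called higher and 10.2% lower. The called genes included Rab11a (0.66 ± 0.16), Fyn (0.62 ± 0.19) and Src (0.51 ± 0.14). The count was 1 without Wild type caerulein replicate 1 or Mist1KO caerulein replicate 1 or 2, and 2 without Wild type caerulein replicate 3 or without the intensity trend. The Fyn and Src calls were each lost in 5 of 22 alternatives, that of Src also without Wild type caerulein replicate 2, and Src was 0.39 with the median of its probe sets (adjusted p = 0.163).

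**Figure D4:**
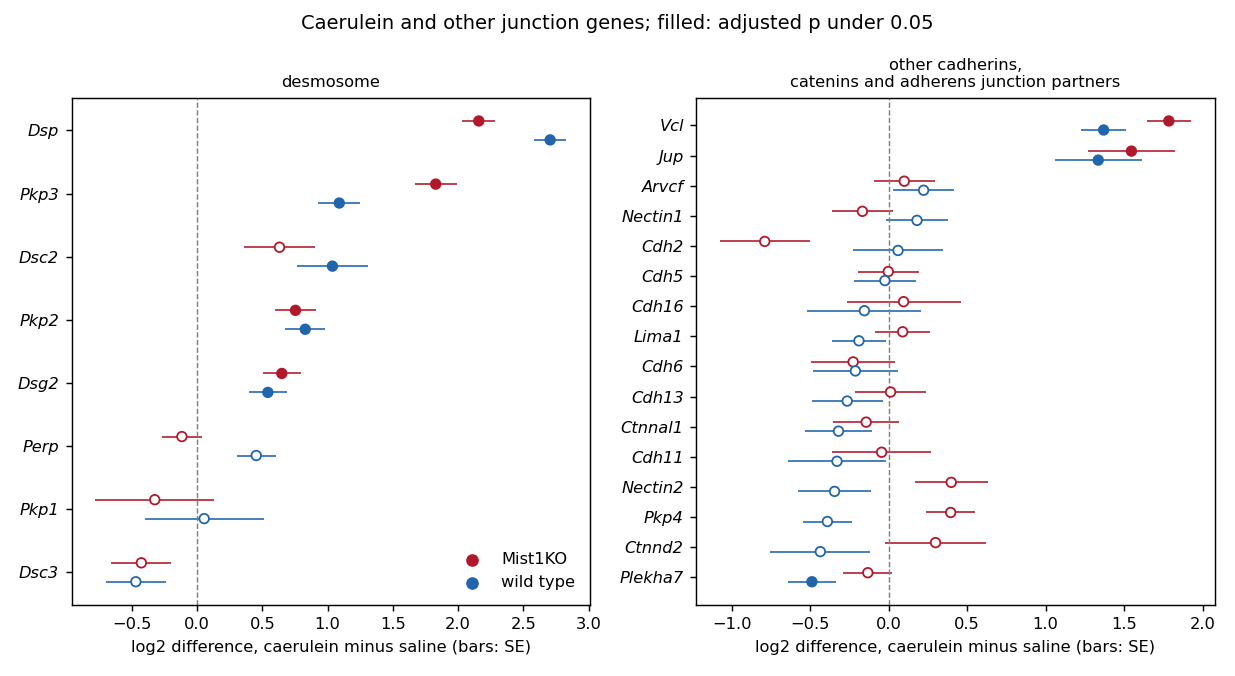
Log2 differences of caerulein minus saline in Mist1KO (red) and wild type (blue) for 8 desmosome genes and 16 other cadherins, catenins and adherens junction partners, with SE bars and filled points where the adjusted p was under 0.05. Dsp is above 2 in both genotypes, and Vcl and Jup stand above the other 14 genes of their list.

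The genes whose pattern over the 12 arrays was most like each of Gjb1, Gjb2 and Cdh1 were ranked by the root mean square difference of log2 values centred on their mean. These genes were picked on the same 12 arrays, so their group differences follow from the choice. For Gjb1 the nearest were Fxyd6 (0.418), Aass (0.469), Fxyd3 (0.498) and Elapor1 (0.548), against a spread of Gjb1 itself of 1.46. These 4 genes had genotype differences of -2.30, -2.43, -2.01 and -2.42 after caerulein and -3.08, -3.20, -2.43 and -1.99 after saline. Each of them has at least 1 promoter window, and CATATG is in 0 of the 4. The motif is in a window of 4.485% of all genes, so 0 among 4 genes shows nothing about them. For Gjb2 the nearest were Csrp1 (0.480), Ndrg1 (0.483), Psat1 (0.552) and Slc7a3 (0.572), against a spread of 1.65. For Cdh1 the nearest was Dsp (0.178), then Fdx1 (0.233), Map2k3 (0.249) and Ano1 (0.264), against a spread of 1.28.

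**Figure D5:**
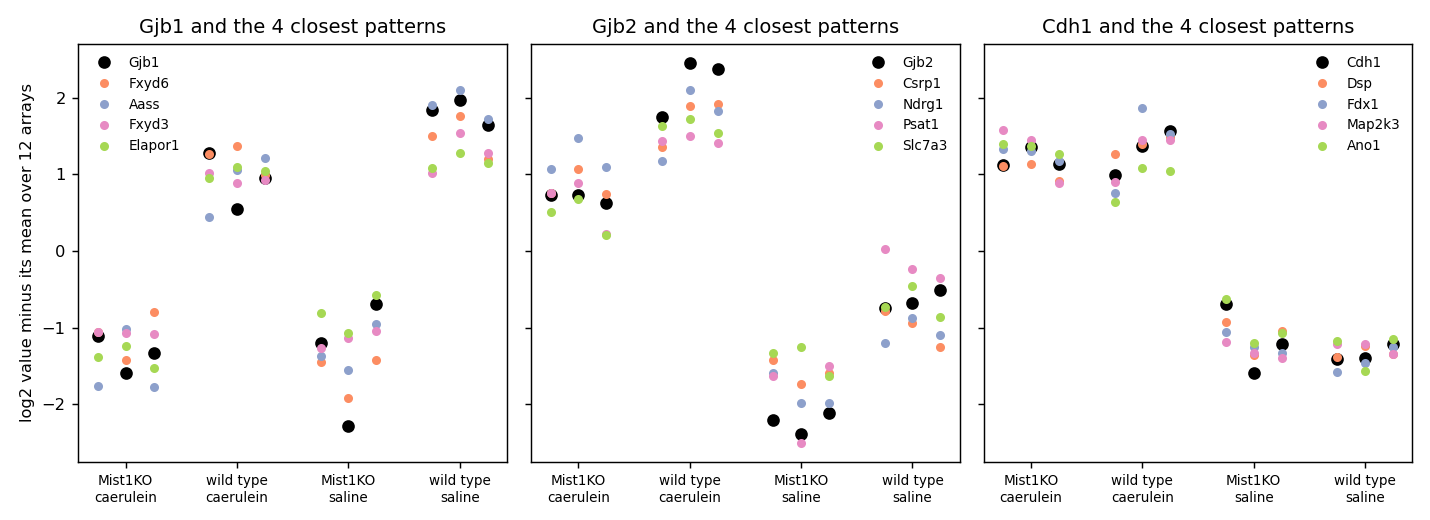
Log2 values centred on the mean over 12 arrays for Gjb1, Gjb2 and Cdh1 and the 4 genes nearest to each, 1 point per array. Cdh1 and its 4 neighbours separate the caerulein arrays from the saline arrays, and Gjb1 and its 4 neighbours separate the genotypes. The neighbours were picked for their likeness on these arrays, so they must share this separation.

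Markers of cell types were counted beside the shares of all tested probe sets. Called lower were 13.4% with caerulein in Mist1KO, 9.74% with caerulein in wild type, 10.2% for genotype after caerulein and 5.74% after saline. Called higher were 10.5%, 9.19%, 10% and 6.84% in the same order. A count of 1 among so few markers cannot be told from these shares. Of 6 acinar markers, 5 fell with caerulein in Mist1KO and 4 were lower in Mist1KO than in wild type after caerulein. For caerulein in wild type 1 of 6 fell, and after saline 0 of 6 were called for genotype, with 4 at an unadjusted p under 0.05 in limma's test. Krt19, a duct marker that injured acinar cells can also express, had 916.9, 1055 and 585.9 in Mist1KO after caerulein, against 290.7, 341.2 and 373.1 in wild type after caerulein. After saline it had 64.8, 49.5 and 54.6 in Mist1KO, against 56.9, 89.1 and 87.5 in wild type. Its rise with caerulein was 3.50 ± 0.21 in Mist1KO and 1.89 ± 0.21 in wild type (adjusted p = 1.39e-07 and 3.54e-05). Of the 4 tested duct markers, Krt19 alone rose, and Muc1 fell with caerulein in wild type (-0.49 ± 0.14). For genotype, 1 of these 4 was higher in Mist1KO after caerulein and 1 was lower in Mist1KO after saline. The duct marker sum was 2286 to 2555 in Mist1KO after caerulein, 2021 to 2392 in wild type after caerulein, 1442 to 1676 in Mist1KO after saline and 2282 to 2640 in wild type after saline. Of 4 tested endothelial markers, 2 were lower in Mist1KO after saline and 1 was lower in each of the other 3 comparisons. Of 6 islet markers, 2 were lower in Mist1KO than in wild type after caerulein, with 5 at an unadjusted p under 0.05, and 1 was lower with caerulein in Mist1KO. Of 6 neutrophil and macrophage markers, 2 were lower with caerulein in wild type. Of 3 smooth muscle markers, 1 was lower in Mist1KO after saline. Of 3 lymphocyte markers, 1 was higher in Mist1KO after saline and 1 was lower with caerulein in wild type. All signals in the data were positive, so a marker signal above 0 does not show that its cell type was present. The part of these markers in the connexin and cadherin results was not tested.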

How the data were processed

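The authors deposited linear intensities of each probe set on each array, all positive. Trimmed means (2%) of 151.08 to 151.37 on the 12 arrays show a common scaling. Neither the summarising software nor the scaling target nor any detection call is stated in the labels. Per the labels' protocols, guanidinium-extracted total RNA, about 10 µg, was labelled. Groups came from the titles and all samples were used.

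The table had 22516 probe sets, 64 of them controls, and its annotation gave 1 symbol to 20240, several to 682 and none to 1530. Before log2, 18.7 was added to each signal (20th percentile of the table), and probe sets at or below the 30th percentile of mean log2 were dropped, leaving 15716. Group means were fitted over all 12 arrays (limma 3.58.1, R 4.3.3; lmFit, then eBayes with trend, 8 residual degrees of freedom), two-sided, with Benjamini-Hochberg adjustment over all tested probe sets and a threshold of 0.05. No identical arrays were found. The number of arrays limits the precision. Scripts were tested on simulated data. Promoters were read from RefSeq tables, and figures drawn with matplotlib 3.10.9.

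Named genes were the 7 members, Bhlha15, per list and comparison at most the 3 called genes with the largest differences, and the 4 genes most like Gjb1, Gjb2 and Cdh1. Of 157 list genes, 132 were matched. Members and lists were chosen with earlier results of these data known. Alternatives were 2 offsets, 2 filters, quantile normalization, median centring, no intensity trend, fewer groups, the replicate block, the median of a gene's probe sets and each array left out.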

Additional observations from a re-analysis of the deposited data

Results flagged for a closer look

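The change of Ctnna1 with caerulein was larger in Mist1KO than in wild type by 1.24 on the log2 scale (probe set 1448149_at), so the genotypes differed in a test of the interaction. Caerulein moved it by 1.76 ± 0.20 in Mist1KO and by 0.52 ± 0.20 in wild type, and the adjusted p of the interaction was 0.0317 in limma's test. The second tested probe set of the gene gave an interaction of 0.40 ± 0.22 with an adjusted p of 0.374.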

How the results depend on the processing

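The genotype calls of Gjb1 and Gjb2 after both injections, and the caerulein calls of Gjb2 and Cdh1 in both genotypes and of Ctnna1 and Ctnnd1 in Mist1KO, held in all 22 alternatives. Of the 5 counts of members called, that for genotype after caerulein was 5, with 3 without the intensity trend and 2 to 5 with 1 array left out. The interaction count was 1, with 0 without the trend and 0 to 1 with 1 array left out. With 1 array left out the other counts were 2 to 3 for genotype after saline, 2 to 3 for caerulein in wild type and 4 to 5 for caerulein in Mist1KO. The replicate numbers did not pair the arrays: the 18 correlations of same-numbered arrays lay between -0.10 and 0.0452, 0 of them over 0.1. The replicate block gave 3, 5, 3, 5 and 1 members called for genotype after saline, genotype after caerulein, caerulein in wild type, caerulein in Mist1KO and the interaction. With it Ctnna1 passed for genotype after saline (adjusted p = 0.0303) and for caerulein in wild type (adjusted p = 0.0240), and Gsk3b did not pass for caerulein in wild type (adjusted p = 0.0502).

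With 1 exception, Dsg2, directions turned only where the difference was not called. Gjb1 with caerulein in Mist1KO was -0.0046 with the 40th percentile offset, -0.2343 with the median of its probe sets and -0.3958 to 0.4021 with 1 array left out. The Gjb2 interaction was -0.0494 with the 40th percentile offset and -0.1225 to 0.2315 with 1 array left out. Gja1 with caerulein in wild type was 0.053 with quantile normalization, 0.0696 with median centring and -0.206 to 0.1696 with 1 array left out. Ctnnb1 with caerulein in Mist1KO was 0.0509 with median centring. With 1 array left out, Cdh1 was -0.2632 to 0.0291 for genotype after caerulein and -0.0666 to 0.3851 for genotype after saline. The called Dsg2 difference for genotype after caerulein was -0.0239 with the median of its probe sets, and the cause was not tested. Median centring moved the median of all tested probe sets to -0.01 in both caerulein comparisons, against -0.14 in wild type and -0.13 in Mist1KO without it. Over all tested probe sets, calls fell to 1068 from 1977 for genotype after saline without Mist1KO saline replicate 3, the lowest with 1 array left out, and to 271 from 518 for the interaction without Mist1KO caerulein replicate 1. Under the alternatives that kept every array, the lowest counts of calls were 1368 beside 1977 for genotype after saline, 2107 beside 3177 for genotype after caerulein, 2001 beside 2975 for caerulein in wild type, 2521 beside 3764 for caerulein in Mist1KO and 314 beside 518 for the interaction. The values carry no measure of background, which limits what the dim Gjb1 and Gja1 signals show.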
